A study of Mus musculus with 21 samples.

Results

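Mouse bone marrow-derived macrophages that had been exposed to fatty acid together with TAK242 and were later given lipopolysaccharide (LPS) were compared with macrophages given LPS alone. The comparison took the 3 libraries labelled fatty acid with TAK242 and the 3 labelled LPS, which are 6 of the 21 libraries of the series and stand in a table of 12. Both groups came from C57Bl6/J mice aged 24 weeks and fed standard chow, and marrow cells were grown in RPMI-1640 with 10% FCS, 1% P/S and 30% L929 supernatant, a usual source of the macrophage growth factor CSF1. The pretreated cultures received 10 mM fatty acid, with 1 part palmitic to 3 parts oleic acid, and 200 nM TAK242 over the first 4 days and were then washed. On day 7 both groups received 100 ng/ml E. coli LPS for 24 h. The same table holds 3 untreated libraries and 3 with fatty acid before LPS but no TAK242, which serve here as reference values. The libraries with fatty acid and TAK242 before LPS are called pretreated below, and those with fatty acid before LPS and no TAK242 are called fatty acid alone. The labels describe no culture with TAK242 alone, so the effects of TAK242 and of fatty acid in this contrast cannot be told apart. They also do not say whether a replicate is an animal or a dish, so p-values measure the spread between these libraries, which may be technical.

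LPS is sensed by TLR4, which works with the co-receptors MD-2 (gene Ly96) and CD14. The receptor signals through MYD88 to NF-kB and AP-1, which switch on genes of cytokines and chemokines, and through TRIF to interferon beta, which in turn switches on interferon-stimulated genes. TAK242 is a small molecule that binds the intracellular part of TLR4 and blocks both branches. Fatty acids taken up by macrophages are stored in lipid droplets, burned in mitochondria, or feed nuclear receptors such as LXR and the PPARs that control lipid export and uptake.

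Values are the deposited values, whose unit is not given in the sources used here. They were treated as normalized values like FPKM, which scale with gene length, so levels are compared within a gene only. A log2 change is the fatty acid with TAK242 mean minus the LPS mean on the log2(value + 1) scale, given with its standard error (SE) from limma. "Rose" and "fell" are used for changes with a limma adjusted p under 0.05 over 10476 genes. The 6 libraries had sums of 346199 to 386023 deposited values, and read depth was not used. The LPS libraries were spread more widely than the pretreated ones: the median standard deviation (SD) over genes was 0.162 on the log2 scale in the LPS group and 0.111 in the fatty acid with TAK242 group, and the LPS group had the larger SD in 6738 genes (64.3%). LPS replicate 1 stood apart. Of 193 genes that fell, this library was the highest of the LPS group in 132 (68.4%), and of 424 that rose it was the lowest in 316 (74.5%).

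Of the genes tested, 617 (5.89%) changed, 424 upward (4.05%) and 193 downward (1.84%), with changes of at least 2-fold in 33 (0.315%) and 29 (0.277%). The groups did not overlap in 3487 genes (33.3%), with all pretreated libraries above in 2343 (22.4%) and all below in 1144 (10.9%). The median of all genes was 0.07, and scaling libraries by median ratios moved it to 0.01 and gave 452 rises (4.31%) and 558 falls (5.33%), so that the share of rises among calls went from 68.7% to 44.8%. Without LPS replicate 1 the number of changed genes was 29, without LPS replicate 2 it was 29, and without LPS replicate 3 it was 1784. Without replicate 1, 2 or 3 of the fatty acid with TAK242 group it was 12, 268 and 1. The 1 call that held in all 6 of these fits was n-R5s202, a small RNA gene within Emc7. A fit of the 6 libraries alone gave 2 calls, this one and Hexdc, beside 2421 genes at an unadjusted p under 0.05, against 3122 (29.8%) in the fit of all 12. Weighting libraries by their quality gave 1605 rises (15.3%) and 878 falls (8.38%). Of 150 named genes 63 changed; 5, 4 and 113 passed without LPS replicates 1, 2 and 3, and 3, 37 and 1 passed without pretreated replicates 1, 2 and 3. Apart from n-R5s202, each call given below was lost in at least 1 of these 6 fits.

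**Figure D1:**
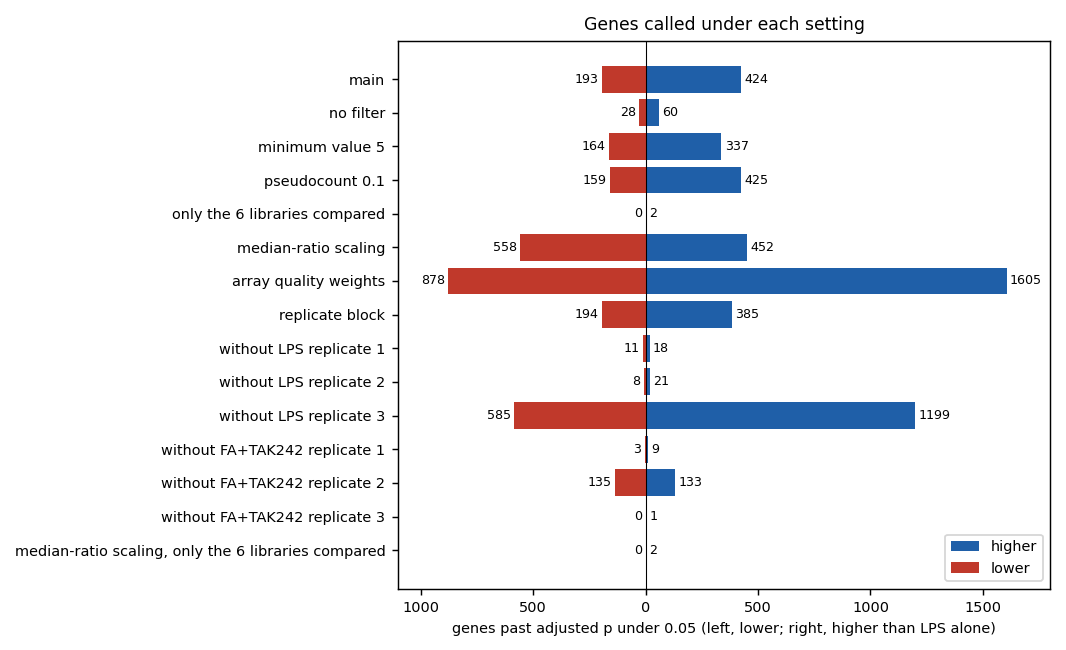
Genes past a limma adjusted p of 0.05 under each setting, with the number lower than in LPS alone to the left of 0 and the number higher to the right. The main fit has 424 higher and 193 lower, while the settings run from 1 call in all (without replicate 3 of the fatty acid with TAK242 group) to 2483 (with libraries weighted by their quality).

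A few genes of secreted inflammatory proteins fell after fatty acid and TAK242, and most members of both lists did not pass. Of 15 tested inflammatory cytokine genes 0 rose and 3 fell (Csf3, Tnf and Il10), with a median of -0.36 (-0.58 without LPS replicate 3), and all pretreated libraries lay below all LPS libraries in 7. Of 19 chemokine genes 0 rose and 3 fell (Ccl3, Ccl4 and Pf4), with a median of -0.18 (-0.11 without pretreated replicate 3), 10 negative and 9 positive changes, and 7 below and 2 above without overlap. For comparison with these and later list counts, 4.05% of all genes tested rose and 1.84% fell. Without overlap, 22.4% of all genes lay above and 10.9% below. Csf3, which encodes the granulocyte growth factor G-CSF, had values of 27.9, 8.37 and 2.34 in LPS replicates 1 to 3 and 0.636, 1.19 and 0.300 in the pretreated libraries. The groups did not overlap, and LPS replicate 1 was more than 3 times as high as the other two LPS libraries. The log2 change was -2.53 (SE 0.57, adjusted p = 0.0360), and -1.74 without that library (adjusted p = 0.0583). Csf3 passed the filter (1 or more in at least 3 libraries) through the LPS libraries, as outside them only pretreated replicate 2 reached 1. Ccl3, a chemokine that draws monocytes and other leukocytes, stood at 1434, 373.2 and 203.8 with LPS and at 83.8, 139.1 and 76.1 after pretreatment. Its log2 change was -2.30 (SE 0.54, adjusted p = 0.0398), and -1.51 without LPS replicate 1 (adjusted p = 0.0559). The untreated mean of Ccl3 was 52.4 ± 3.61 (SD, n = 3), below every library of both groups.

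Ccl4, the neighbour of Ccl3 on chromosome 11 with a related chemoattractant product, had values of 298.8, 178.3 and 150.0 with LPS and 72.3, 105.3 and 77.9 after pretreatment. Its change of -1.24 (SE 0.23, adjusted p = 0.0280) came to -0.95 without LPS replicate 1 (adjusted p = 0.0572). Pf4, a platelet factor gene that macrophages also express, fell from 2387, 1644 and 1569 to 866.4, 983.6 and 994.9, a change of -0.95 (SE 0.18, adjusted p = 0.0280). The 3 fatty acid libraries without TAK242 lay lower still for Pf4, at 336.5, 273.7 and 252.5, and the difference of 1.73 between the groups with and without TAK242 passed the test (adjusted p = 0.00124). For Tnf (chromosome 17, 35199381 to 35202007, GRCm38), the gene of tumour necrosis factor, the change was -1.51 (SE 0.39, adjusted p = 0.0484), with -0.98 without LPS replicate 1 (adjusted p = 0.0685).

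The neutrophil chemokine genes had the widest spread. Cxcl2 stood at 1574, 134.0 and 46.3 with LPS and at 24.2, 33.7 and 12.4 after pretreatment, Cxcl3 at 1531, 101.8 and 28.2 against 16.1, 24.6 and 8.16. Cxcl1 had 117.5, 5.73 and 1.66 against 0.629, 1.10 and 0.207. In each of these genes the groups did not overlap, and LPS replicate 1 was more than 10 times as high as the next LPS library. Their changes of -3.25 (SE 0.96), -3.39 (SE 1.07) and -3.00 (SE 1.02) did not pass, with adjusted p = 0.0661, 0.0751 and 0.0885. Cxcl1, like Csf3, passed the filter through the LPS libraries, as outside them only pretreated replicate 2 reached 1. Il1b, the gene of the fever-inducing cytokine IL-1 beta, had 1987, 543.2 and 262.1 with LPS and 145.4, 260.4 and 79.9 after pretreatment, and its change of -2.17 (SE 0.62) did not pass either (adjusted p = 0.0598). The Il6 values overlapped between the groups, at 40.3, 10.99 and 4.11 against 1.82, 4.36 and 0.951.

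Other chemokine genes overlapped between the groups or lay higher. Cxcl10, which attracts T cells, stood at 24.1, 58.5 and 92.8 with LPS and at 78.3, 87.5 and 120.1 after pretreatment, and Ccl5 at 3495, 5431 and 6705 against 5267, 5908 and 6517. Neither passed, with adjusted p = 0.153 and 0.638, and in both LPS replicate 1 was the lowest of its group. Ccl2, the monocyte attractant, likewise overlapped with 210.4, 573.7 and 734.1 against 483.8, 556.5 and 612.1. Ccl8, another monocyte attractant, lay higher without overlap at 9.64, 7.43 and 14.6 against 0.990, 2.82 and 7.35 with LPS, and its change of 1.49 (SE 0.41) did not pass (adjusted p = 0.0559). With fatty acid alone Ccl8 stood higher again, at 36.3, 33.9 and 37.5.

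**Figure D2:**
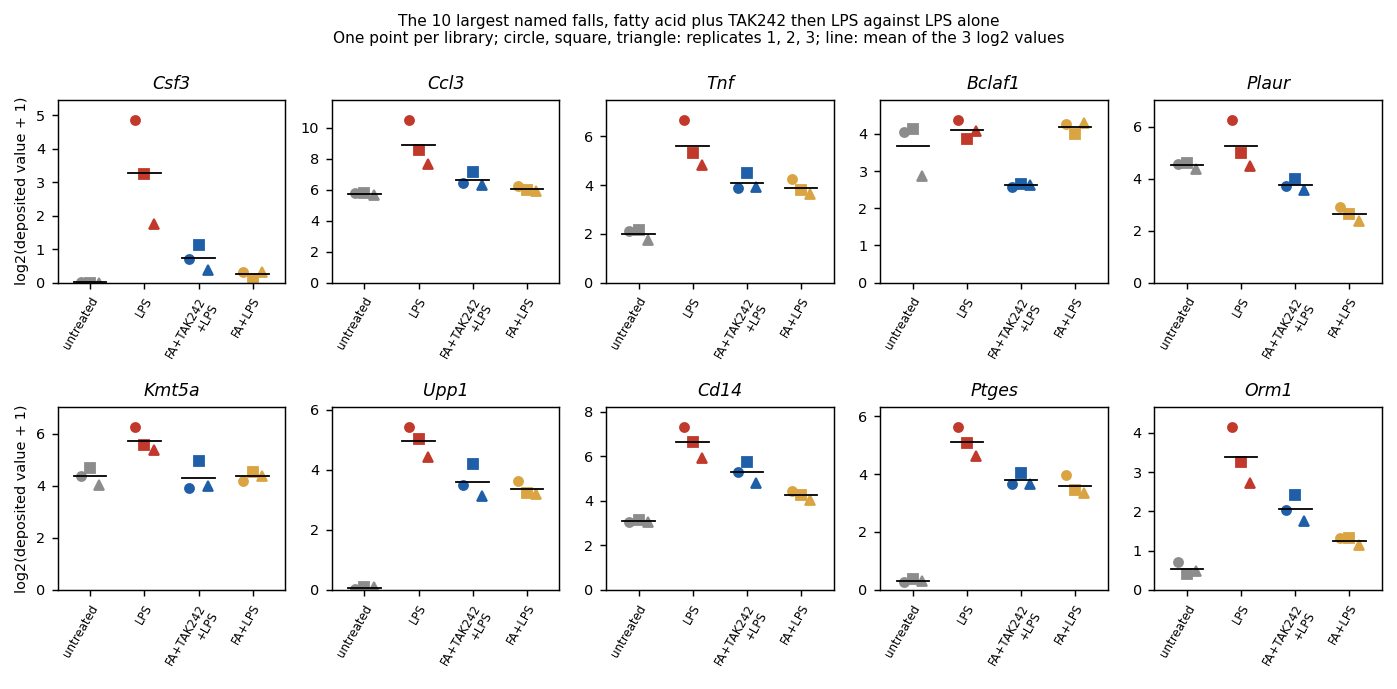
The 10 largest named falls, with log2(deposited value + 1) on the vertical axis (each panel starts at 0) for untreated, LPS, fatty acid with TAK242 then LPS, and fatty acid then LPS; points are libraries and lines the mean of 3. All 3 pretreated libraries with TAK242 lie below all 3 LPS libraries in each panel, and in Bclaf1 they also lie below the fatty acid libraries without TAK242.

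Members of the receptor complex moved in different directions. Of 15 tested genes of the TLR4 complex and its adaptors 1 rose (Tlr4) and 1 fell (Cd14), with a median of 0.06 (0.03 without pretreated replicate 2). Tlr4 itself had values of 1.70, 1.52 and 1.94 with LPS and 2.52, 2.53 and 2.39 after pretreatment, a change of 0.35 (SE 0.08, adjusted p = 0.0351). The untreated mean was 4.41, above both groups. The Cd14 change was -1.34 (SE 0.31, adjusted p = 0.0379), and -1.0 without LPS replicate 1 (adjusted p = 0.0771). Ly96 had 36.8, 32.4 and 36.7 against 36.3, 36.5 and 41.6, overlapping between groups, with a change of 0.11 (SE 0.09, adjusted p = 0.430). Of 19 NF-kB subunit and inhibitor genes 0 rose and 1 fell, with a median of -0.23; without LPS replicate 1 it was -0.09 and 0 passed. The one was Nfkbiz, which encodes the nuclear co-activator I-kappa-B-zeta, with 20.5, 16.2 and 12.1 against 9.32, 11.1 and 8.14 and a change of -0.69 (SE 0.17, adjusted p = 0.0420). Nfkbia, the gene of the inhibitor that NF-kB induces to shut itself off, had 178.7, 184.7 and 157.8 against 109.4, 141.9 and 115.2 without overlap, and its change of -0.51 missed the threshold (SE 0.13, adjusted p = 0.0508).

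Among 11 tested feedback inhibitors 2 rose and 2 fell. Socs3, an inhibitor of STAT3 signalling, fell from 1.66, 1.87 and 1.48 to 0.372, 0.670 and 0.781 (change -0.74, SE 0.12, adjusted p = 0.0254). Genes were tested if at 1 or more in at least 3 libraries, and Socs3 reached 1 only in the LPS libraries. Its fall was thus favoured by the filter. Ier3, an early response gene, fell from 20.3, 16.4 and 10.0 to 5.36, 7.52 and 6.03 (change -1.14, SE 0.25, adjusted p = 0.0348). The opposite direction was seen for Zfp36, whose product tristetraprolin degrades cytokine mRNA, at 2.04, 1.66 and 2.20 against 2.87, 2.70 and 3.69 (change 0.46, SE 0.12, adjusted p = 0.0477). Tsc22d3, the glucocorticoid-induced leucine zipper gene, rose from 1.62, 3.51 and 4.84 to 6.73, 5.54 and 8.11 (change 0.91, SE 0.24, adjusted p = 0.0493). The exons of Zfp36 overlap those of Gm44710, and the strand setting of the counting is not given in the sources used here, so reads of these genes cannot be told apart.

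Enzymes of arginine, nitric oxide, itaconate and related mediators fell in 4 of 13 tested genes and rose in 0. The median was -0.39, and 8 genes lay below without overlap. Over all genes 1.84% fell and 10.9% lay below without overlap. Ptges, the inducible prostaglandin E synthase, stood at 48.2, 33.1 and 23.8 with LPS and 11.7, 15.5 and 11.7 after pretreatment (change -1.32, SE 0.23, adjusted p = 0.0280). Arg1, which splits arginine to ornithine and urea, went from 85.2, 70.7 and 85.9 to 52.0, 51.5 and 52.3 (change -0.62, SE 0.11, adjusted p = 0.0280). In Arg1 the LPS libraries were close together and LPS replicate 1 was not the highest. Arg2, the mitochondrial arginase, changed by -0.43 (SE 0.09, adjusted p = 0.0288), although its exons overlap those of Vti1b, and Gch1, which starts the synthesis of the nitric oxide synthase cofactor, by -0.58 (SE 0.12, adjusted p = 0.0283). Nos2, the inducible nitric oxide synthase, overlapped between groups at 4.38, 9.57 and 17.3 against 15.2, 16.0 and 22.3 (adjusted p = 0.133). Acod1, whose product makes itaconate, lay lower without overlap at 254.9, 317.0 and 257.4 against 379.6, 335.3 and 329.3, with a change of -0.34 (SE 0.13) that did not pass (adjusted p = 0.129).

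Of 20 antimicrobial and acute phase genes 1 rose (Cp, the gene of the copper carrier ceruloplasmin, with exons overlapping Hps3) and 4 fell (Camp, Orm1, Wfdc21 and F10), with a median of -0.32. Orm1, the orosomucoid gene, fell from 16.7, 8.61 and 5.65 to 3.09, 4.30 and 2.38 (change -1.32, SE 0.29, adjusted p = 0.0357). Camp, which encodes the antimicrobial peptide cathelicidin, fell from 5.09, 3.80 and 2.65 to 1.84, 1.72 and 0.669 (change -1.02, SE 0.22, adjusted p = 0.0319). Slpi, a protease inhibitor gene, stood at 1388, 151.1 and 63.2 with LPS and 36.7, 53.6 and 25.9 after pretreatment, without overlap, but did not pass (change -2.65, SE 0.83, adjusted p = 0.0749). Saa3, an acute phase gene, did not follow: its values were 27837, 49516 and 14007 with LPS and 51385, 39763 and 11673 after pretreatment, and the groups overlapped (adjusted p = 0.919). Replicate 3 of each group had the lowest Saa3 value.

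Matrix proteases and their inhibitors were split, with 1 rise and 2 falls among 16 tested genes and a median of -0.34 (-0.15 without LPS replicate 1). Mmp13, a collagenase gene, fell from 118.5, 88.5 and 71.5 to 46.7, 54.8 and 38.9 (change -0.96, SE 0.17, adjusted p = 0.0280). Plaur, the urokinase receptor gene, fell from 75.9, 31.0 and 21.4 to 12.2, 14.9 and 10.97 (change -1.49, SE 0.35, adjusted p = 0.0408), with -0.98 without LPS replicate 1 (adjusted p = 0.0582). Mmp12, the macrophage elastase gene, overlapped at 250.7, 197.4 and 78.0 against 78.8, 108.5 and 70.2 (adjusted p = 0.131). Timp2, an inhibitor of matrix metalloproteinases, rose from 2.08, 2.52 and 3.28 to 4.86, 5.36 and 5.92 (change 0.82, SE 0.11, adjusted p = 0.0156). The Timp2 call held with any 1 library left out except replicate 3 of the pretreated group, where the adjusted p was 0.0565 and the change 0.76. Timp2 in the fatty acid libraries without TAK242 was higher again, at 10.8, 10.4 and 11.01, and the untreated mean was 24.6.

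The promoters of the 20 genes with the largest named changes were searched in the RefSeq set (GRCm38.p6) over the 250 bases before each start, on both strands, for TTTC-NN-TTTC (the core of the interferon-stimulated response element), GGG-NN-TTTCC (kappa B), TGANTCA (AP-1) and ACGTG (hypoxia response). A promoter was found for 7 of 10 falls and 8 of 10 rises. The AP-1 letters stood in 2 of the 7, Plaur and Upp1, and in 7.82% of all 27025 genes with a promoter; the other 3 motifs stood in 0 of the 7, and the kappa B letters stood in 1.65% of all. In the rises the response element letters stood in 2 of the 8, Ddx60 and Coro2a, and in 3.46% of all genes. The hypoxia letters stood in 2 of the 8, Hexdc and Rgl1, and in 18.5% of all genes, and the AP-1 and kappa B letters in 0 of the 8. A match is a run of letters and not a measured site. The last 100 bases before the start of the 4 genes with an AP-1 or response element match are printed 5′ to 3′ on the strand of the gene, with the matching letters in capitals. They stand at chr7:24462383-24462482 (plus strand) for Plaur, chr11:9117908-9118007 (plus strand, the first of 3 starts) for Upp1, chr8:61927987-61928086 (plus strand) for Ddx60 and chr4:46566441-46566540 (minus strand, the second of 2 starts) for Coro2a.
Plaur: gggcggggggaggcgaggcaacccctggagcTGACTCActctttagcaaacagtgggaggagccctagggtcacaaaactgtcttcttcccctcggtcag
Upp1: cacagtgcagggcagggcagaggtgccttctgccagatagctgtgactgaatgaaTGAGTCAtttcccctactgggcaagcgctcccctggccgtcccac
Ddx60: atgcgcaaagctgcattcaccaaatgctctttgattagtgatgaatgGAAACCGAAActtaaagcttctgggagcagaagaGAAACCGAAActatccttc
Coro2a: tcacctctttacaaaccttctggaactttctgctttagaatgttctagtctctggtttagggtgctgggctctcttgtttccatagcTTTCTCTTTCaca

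Interferon-stimulated genes lay mostly higher after fatty acid and TAK242. Of 44 tested members 41 had a positive change, as had 6337 of all 10476 genes. All 3 pretreated libraries lay above all LPS libraries in 16 members, beside 22.4% of all genes. The median was 0.56 beside 0.07 over all genes, but only 3 members rose in the test (Eif2ak2, Ddx60 and Ifit2) and 0 fell. Without LPS replicate 1 the median was 0.25 and 1 member passed; without LPS replicate 3 it was 0.81 and 26 passed. Eif2ak2, the gene of the double-stranded RNA sensor kinase PKR, had the tightest groups, at 18.6, 19.2 and 20.2 with LPS and 30.5, 30.9 and 32.2 after pretreatment. Its change was 0.66 (SE 0.08, adjusted p = 0.0105), and the call held with any 1 library left out except replicate 3 of the pretreated group (change 0.64, adjusted p = 0.0565). Its exons overlap the small RNA gene n-R5s29. Ddx60, which carries a pair of response element matches in the sequence above and whose product helps to sense viral RNA, went from 7.69, 12.98 and 19.4 to 26.5, 26.9 and 37.5 (change 1.19, SE 0.27, adjusted p = 0.0360), and its change was 0.87 without LPS replicate 1 (adjusted p = 0.0654).

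Ifit2, which encodes a protein that binds foreign RNA, changed by 1.69 (SE 0.40, adjusted p = 0.0408), or by 1.12 without LPS replicate 1 (adjusted p = 0.0584). Mx1, the gene of a GTPase that blocks influenza virus, had 11.2, 31.1 and 52.9 against 55.6, 53.5 and 88.0, without overlap, and did not pass (change 1.23, SE 0.43, adjusted p = 0.0958). In Ddx60, Ifit2 and Mx1 alike LPS replicate 1 was the lowest library and replicate 3 the highest of the LPS group. The fatty acid libraries without TAK242 were higher in all 3 genes, with means of 53.2, 49.5 and 175.1. Against LPS alone, which both comparisons share, 31 of the 44 members rose in that group and 0 fell, where 3893 of all genes tested changed (37.2%, with 21.8% higher and 15.3% lower). Between the groups with and without TAK242 0 members were higher and 2 lower with TAK242, where 491 of all genes changed (4.69%, with 3.01% higher and 1.68% lower).

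Genes of MHC class I and the immunoproteasome, which interferons also induce, had a median of 0.34 with 0 of 20 changed. B2m, the light chain of class I molecules, had means of 2711 ± 691 with LPS and 3580 ± 195 after pretreatment (SD, n = 3; change 0.43, SE 0.16, adjusted p = 0.107). The 10 tested class II genes had a median of 0.20 with 0 changed, and without LPS replicate 1 the medians were 0.09 for class I and -0.02 for class II. Cd74, the invariant chain gene, stood at a mean of 24.0 ± 11.5 with LPS, 39.8 ± 3.64 after pretreatment and 20.2 with fatty acid alone, with a change of 0.84 (SE 0.31, adjusted p = 0.108).

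**Figure D3:**
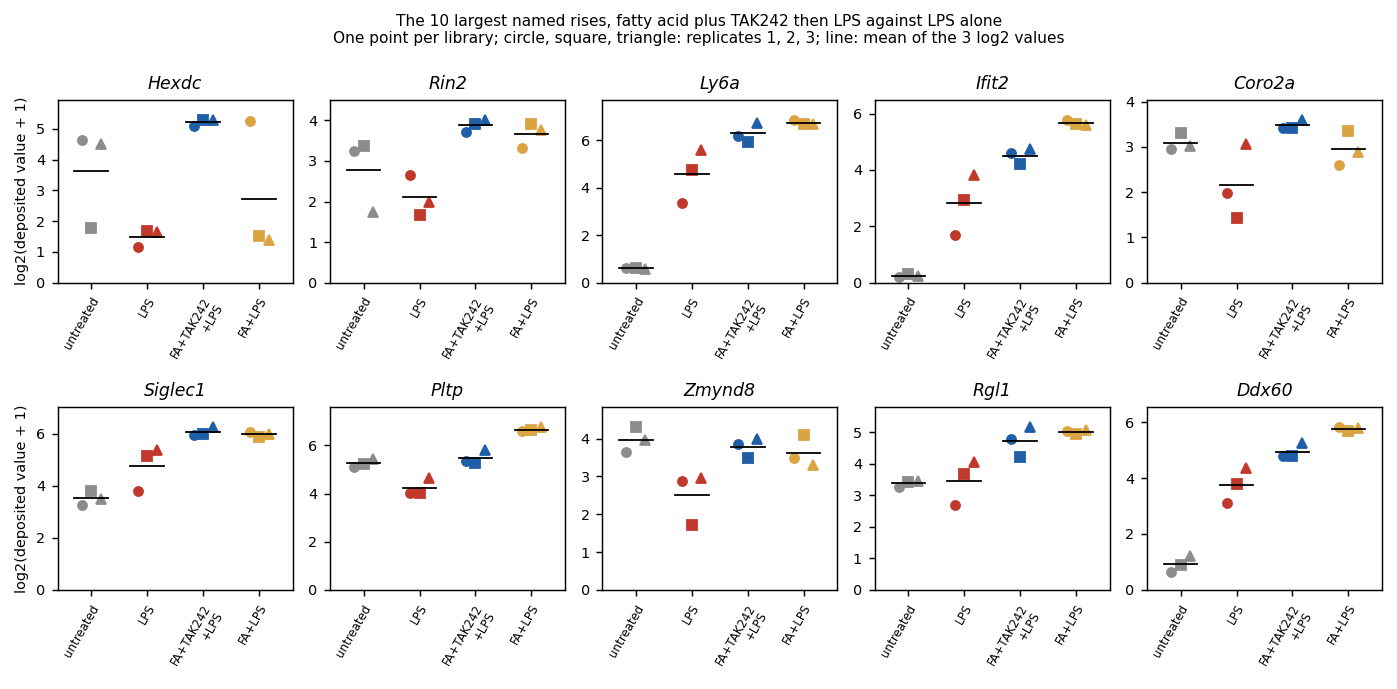
The 10 largest named rises, with log2(deposited value + 1) on the vertical axis (each panel starts at 0) for the same 4 groups; points are libraries and lines the mean of 3. The pretreated libraries with TAK242 lie above the LPS libraries in each panel, while Hexdc splits the fatty acid libraries without TAK242 into 1 high and 2 low and the untreated ones into 2 high and 1 low.

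Of the 10 largest named rises 7 lay outside the lists. Ly6a, which encodes the interferon-inducible surface protein Sca-1, went from 9.22, 25.7 and 47.8 to 72.0, 59.9 and 106.3 (change 1.72, SE 0.43, adjusted p = 0.0470). Siglec1, the sialic acid receptor CD169 of macrophages, went from 12.9, 34.2 and 40.8 to 60.9, 62.4 and 74.8 (change 1.29, SE 0.33, adjusted p = 0.0477). LPS replicate 1 was the lowest library of both genes, and without it the changes were 1.11 (adjusted p = 0.0620) and 0.80 (adjusted p = 0.0582). Rin2, a regulator of the endocytic GTPase RAB5, went from 5.33, 2.17 and 2.94 to 12.1, 14.1 and 15.1 (change 1.78, SE 0.39, adjusted p = 0.0351), and its change was larger, 2.06, without LPS replicate 1 (adjusted p = 0.0582). Coro2a, a coronin-family gene, went from 2.96, 1.68 and 7.31 to 9.73, 9.68 and 11.1 (change 1.32, SE 0.34, adjusted p = 0.0478), and its exons overlap those of Gm16731. Zmynd8, which encodes a reader of modified histones, changed by 1.26 (SE 0.33, adjusted p = 0.0493) and Rgl1, a Ral GTPase regulator, by 1.25 (SE 0.31, adjusted p = 0.0451). In the LPS group Coro2a and Zmynd8 were lowest in replicate 2, not in replicate 1.

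The largest named rise by size, Hexdc (a hexosaminidase gene), had values of 1.22, 2.22 and 2.11 with LPS and 33.3, 37.5 and 38 after pretreatment (change 3.73, SE 0.97, adjusted p = 0.0499). In the fatty acid libraries without TAK242 it stood at 37.3, 1.83 and 1.60, and in the untreated libraries at 23.7, 2.43 and 21.9. Both reference groups were thus split into high and low libraries. Its exons overlap those of Cybc1 and Ogfod3, so reads of these genes cannot be told apart, and their part in the difference was not tested.

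Lipid-handling genes gave few calls. Of 14 LXR targets 2 rose (Pltp and Abcg1) and 0 fell, with a median of 0.18 (0.10 without LPS replicate 3). All pretreated libraries lay above all LPS libraries in 4 of the 14, beside 22.4% of all genes, of which 4.05% rose. Pltp, the phospholipid transfer protein gene, stood at 15.1, 15.1 and 23.8 with LPS, 39.9, 37.2 and 55.9 with fatty acid and TAK242, and 95.1, 98.6 and 107.2 with fatty acid alone. Its change was 1.27 (SE 0.19, adjusted p = 0.0183), and its exons overlap those of Ctsa. Abcg1, a transporter that exports cholesterol to HDL, stood at 3.49, 4.44 and 5.35, then 8.36, 7.74 and 10.4, and 18.4, 17.2 and 16.9 in the same order. Its change was 0.86 (SE 0.16, adjusted p = 0.0280). In both genes the 3 groups were fully separated, with the TAK242 group in the middle, and the differences between the groups with and without TAK242 passed the test (-1.18, adjusted p = 0.0114, and -0.92, adjusted p = 0.0135). Untreated means were 37.6 for Pltp and 9.92 for Abcg1. Against untreated libraries the pretreated group did not pass in limma (adjusted p = 0.348 and 0.444).

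Apoc2, an apolipoprotein gene of the same list with exons overlapping Gm44805, was ordered likewise at 21.1, 29.0 and 31.4, then 34.1, 37.9 and 37.8, and 41.4, 43.6 and 39.9, but its change of 0.44 (SE 0.15) did not pass (adjusted p = 0.0953). Abca1 and Apoe overlapped between LPS and the pretreated group. Abca1, the transporter that lipidates apolipoprotein A1, stood at 59.3, 46.8 and 45.9 with LPS and 57.9, 58.1 and 56.7 after pretreatment (change 0.19, SE 0.15, adjusted p = 0.424). Apoe, the apolipoprotein E gene, overlapped at 757.3, 557.5 and 608.8 against 585.4, 617.2 and 779.5 (change 0.04, SE 0.16, adjusted p = 0.881). The fatty acid libraries without TAK242 held 2004, 1544 and 1790 for Apoe, all above the TAK242 group (difference -1.43, SE 0.16, adjusted p = 0.00165). Col18a1, a basement membrane collagen gene, was a case of the same kind in the other direction: 13.9, 11.95 and 11.5 with LPS, 12.9, 13.2 and 11.7 with fatty acid and TAK242, and 2.92, 2.61 and 2.22 with fatty acid alone. For Apoe and Col18a1 the group with TAK242 thus overlapped LPS alone and differed from fatty acid alone.

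Of 21 genes of lipid uptake and storage 0 rose and 2 fell, the acyltransferase genes Dgat2 (change -0.52, SE 0.10, adjusted p = 0.0280) and Agpat2 (change -0.44, SE 0.09, adjusted p = 0.0299), with a median of -0.11 (-0.01 without pretreated replicate 1). Dgat2, which catalyses the last step of triglyceride synthesis, stood at 1.55, 1.66 and 1.07 with LPS and 0.606, 0.860 and 0.585 after pretreatment. It reached the filter value of 1 only in the LPS libraries, so its fall was favoured by the filter. Plin2, the main lipid droplet coat gene of macrophages, overlapped at 303.2, 479.3 and 580.7 against 494.4, 491.1 and 599.6 (adjusted p = 0.402). Cd36, a fatty acid and scavenger receptor gene, overlapped too, at 641.7, 326.1 and 311.8 against 336.7, 342.2 and 339.5 (adjusted p = 0.475). LPS replicate 1 was the lowest of its group for Plin2 and the highest for Cd36. Of 17 genes of fatty acid oxidation and PPAR targets 0 changed (median 0.15, or 0.08 without LPS replicate 1). In 6 of these the pretreated libraries lay above without overlap, beside 22.4% of all genes. Of 24 cholesterol synthesis genes 0 changed (median -0.05).

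Genes known from lipid-associated macrophages of fatty tissues rose in 3 of 19 and fell in 0, with a median of 0.07 that became -0.01 after median-ratio scaling, 0.03 without LPS replicate 3 and 0.13 without pretreated replicate 1. Gpnmb, a glycoprotein gene of such cells, went from 489.2, 388.9 and 477.7 to 736.5, 728.0 and 980.0 (change 0.84, SE 0.18, adjusted p = 0.0317), and the libraries with fatty acid alone held 866.7, 788.7 and 703.2. Cd5l, whose product is secreted by tissue macrophages, went from 1.17, 2.01 and 2.95 to 4.57, 4.00 and 6.64 (change 1.01, SE 0.21, adjusted p = 0.0293), far below the 24.3, 24.5 and 25.4 with fatty acid alone. The other member that rose was Timp2. Untreated means of Gpnmb, Cd5l and Timp2 were 1679, 79.7 and 24.6, above every LPS and pretreated library.

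Alternative activation and scavenger genes rose in 2 of 16 (Mrc1 and Il4ra) and fell in 1 (Arg1, described above), with a median of 0.26 that became 0.09 without LPS replicate 1 and 0.11 without pretreated replicate 3. Mrc1, the mannose receptor gene, went from 3.82, 6.14 and 8.39 to 14.3, 11.8 and 13.8 (change 1.05, SE 0.21, adjusted p = 0.0283), against an untreated mean of 294.3. Il4ra, a chain of the receptor for IL-4 and IL-13, went from 14.2, 18.7 and 26.6 to 36.2, 30.9 and 45.2 (change 0.91, SE 0.19, adjusted p = 0.0300), and its exons overlap those of Gm44876. Without LPS replicate 1 these changes were 0.80 (adjusted p = 0.0583) and 0.71 (adjusted p = 0.0621). In the lysosome list Lamp2, a membrane protein needed for autophagy, rose by 0.44 (SE 0.11, adjusted p = 0.0498), and the cathepsin gene Ctsk fell, with a change of -0.60 (SE 0.14, adjusted p = 0.0384).

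**Figure D4:**
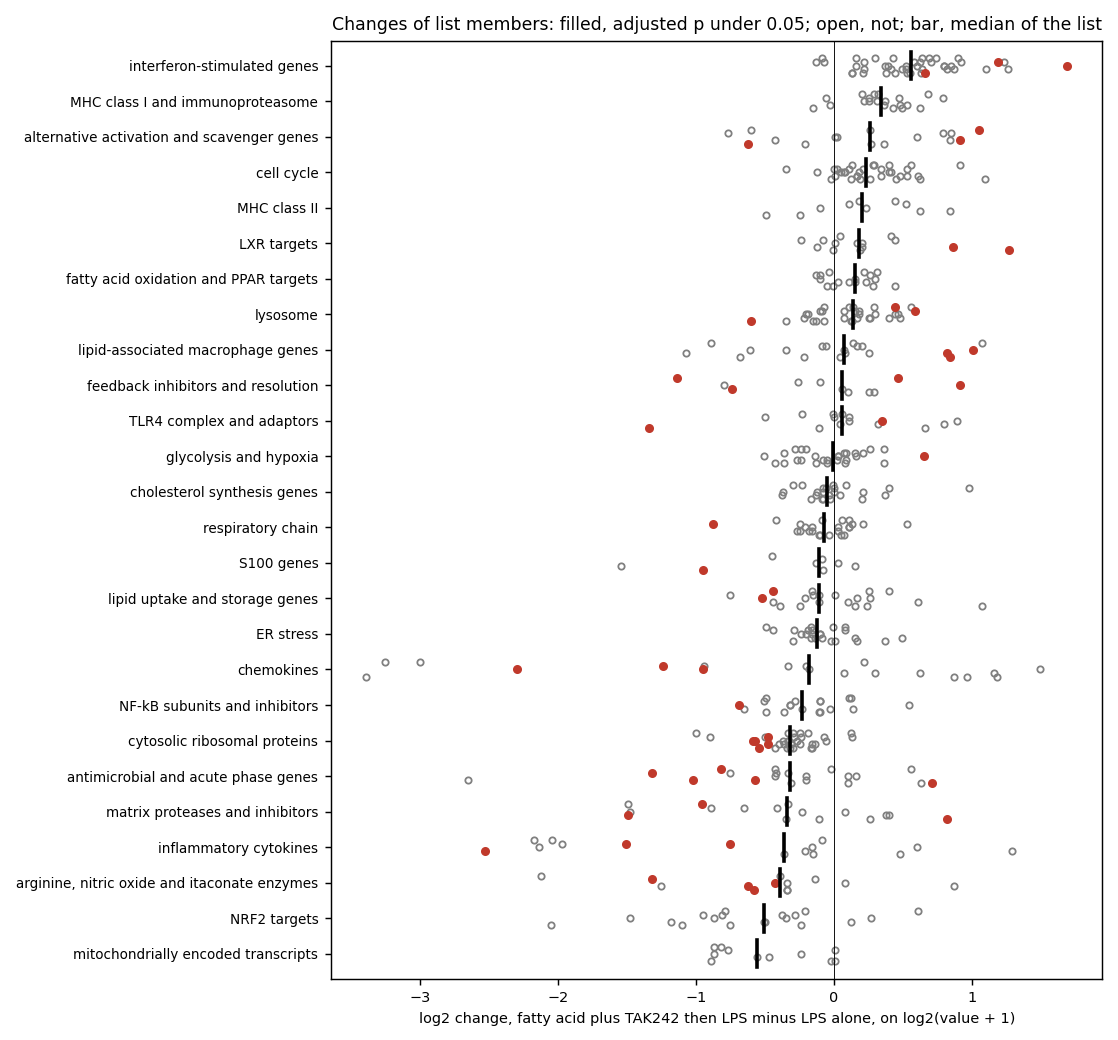
Log2 change of each tested member of 26 gene lists, with lists ordered by their median (black bar); filled points passed an adjusted p of 0.05 in limma and open points did not. The interferon-stimulated list has the highest median (0.56) with 3 filled points. The mitochondrially encoded list has the lowest (-0.56, but -0.11 without LPS replicate 3) with 0. The chemokine list reaches farthest to the left (-3.39), followed by the antimicrobial and acute phase list (-2.65) and the cytokine list (-2.53).

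Of 34 cytosolic ribosomal protein genes 0 rose and 5 fell (Rpl8, Rpl13, Rplp1, Rplp2 and Rps15), beside 1.84% falls over all genes. The median was -0.32, and 20 lay below without overlap, beside 10.9% of all genes. Rplp1, a stalk protein gene, stood at 653.0, 573.7 and 534.6 with LPS and 348.1, 431.8 and 392.6 after pretreatment (change -0.59, SE 0.14, adjusted p = 0.0410). After median-ratio scaling 12 of the 34 fell and the median was -0.39, and without LPS replicate 1, 0 passed with a median of -0.26. Ribosomal protein genes have many near-identical pseudogene copies, so these values are uncertain where the authors' counting could split reads between copies. The 11 mitochondrially encoded transcripts had a median of -0.56 with 0 changed and 4 below without overlap, and after scaling 2 fell. This median rested on LPS replicate 3: it was -0.11 without that library and -0.85 without LPS replicate 1. For mt-Atp6, an ATP synthase subunit gene whose exons overlap mt-Atp8 and mt-Co3, the LPS libraries held 2.37, 2.01 and 8.24 and the pretreated ones 1.36, 1.73 and 1.30 (adjusted p = 0.113). Of 24 nuclear respiratory chain genes 11 had a positive change, beside 6337 of all 10476 genes, and the median was -0.07. The 1 that fell was Cox8a, a subunit of cytochrome c oxidase, at 61.9, 70.4 and 72.9 against 30.8, 38.5 and 41.1 (change -0.88, SE 0.14, adjusted p = 0.0254).

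The 19 NRF2 targets, genes of the antioxidant response, had a median of -0.51 with 8 below without overlap (10.9% of all genes) and 0 changed. Without LPS replicate 1 the median was -0.27. Slc7a11, the cystine importer gene, had means of 24.8 ± 30.6 with LPS and 2.84 ± 1.16 after pretreatment (SD, n = 3; change -2.05, SE 0.65, adjusted p = 0.0771), and the SD of the LPS group was larger than its mean. Of 28 glycolysis and hypoxia genes 1 rose, Hk1, the hexokinase gene, at 11.1, 17.5 and 17.3 against 23.7, 24.2 and 24.2 (change 0.65, SE 0.15, adjusted p = 0.0419). The 24 ER stress genes (median -0.12, or -0.07 without LPS replicate 1) and 34 cell cycle genes (median 0.23, or 0.10 without LPS replicate 1, 31 positive) had 0 changed. Among all 10476 genes 6337 had a positive change. Of 8 S100 genes 1 fell, S100a6, a calcium-binding protein gene, at 76.1, 87.9 and 83.6 against 37.4, 62.3 and 31.9 (change -0.95, SE 0.20, adjusted p = 0.0319).

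Few genes set the group with TAK242 apart from both LPS alone and fatty acid alone. Past the threshold in both tests and in the same direction were 17 genes (0.162%), 15 higher and 2 lower, of which 6 met the naming rule. Il10, the gene of the anti-inflammatory cytokine IL-10, stood at 12.9, 10.2 and 8.01 with LPS, at 11.98, 9.13 and 9.38 with fatty acid, and at 4.71, 6.10 and 6.22 with fatty acid and TAK242. The LPS and fatty acid libraries overlapped, and the TAK242 libraries lay below all of them. The change was -0.75 (SE 0.16, adjusted p = 0.0348) against LPS and -0.74 (SE 0.16, adjusted p = 0.0339) against fatty acid, with an untreated mean of 0.524. Bclaf1, whose product takes part in transcription and RNA processing, fell from 19.8, 13.4 and 16.0 with LPS and 18.2, 15.1 and 18.5 with fatty acid to 4.94, 5.27 and 5.20 (changes -1.49, adjusted p = 0.0280, and -1.57, adjusted p = 0.0171). The untreated libraries of Bclaf1 were split, at 15.4, 16.6 and 6.24. Its call against LPS held in 2 of the 6 fits with a library left out.

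Lrp1, a large endocytic receptor for apolipoprotein E and proteases, stood at 48.4, 35.4 and 35.6 with LPS, 58.1, 42.3 and 45.4 with fatty acid, and 71.1, 77.9 and 78.7 with fatty acid and TAK242. Its changes were 0.93 (SE 0.16, adjusted p = 0.0254) against LPS and 0.65 (SE 0.16, adjusted p = 0.0443) against fatty acid, while the untreated mean was 109.6. The other 3 genes moved less. Polr2a, the largest subunit of RNA polymerase II, stood at 10.9, 9.82 and 9.27 against 13.9, 14.1 and 13.7 (change 0.44, SE 0.11, adjusted p = 0.0459), Ppp1r9b, the neurabin-family scaffold spinophilin, at 12.96, 13.3 and 12.5 against 19.1, 20.1 and 16.5 (change 0.48, SE 0.09, adjusted p = 0.0280). Capn1, the calpain protease subunit gene, stood at 18.5, 19.3 and 19.6 against 23.01, 23.4 and 23.3 (change 0.27, SE 0.07, adjusted p = 0.0479). The LPS and TAK242 groups of these genes did not overlap. Lrp1 kept its call without LPS replicate 1, without LPS replicate 3 and without replicate 2 of the TAK242 group, but Polr2a kept it in 0 of the 6 fits with a library left out.

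**Figure D5:**
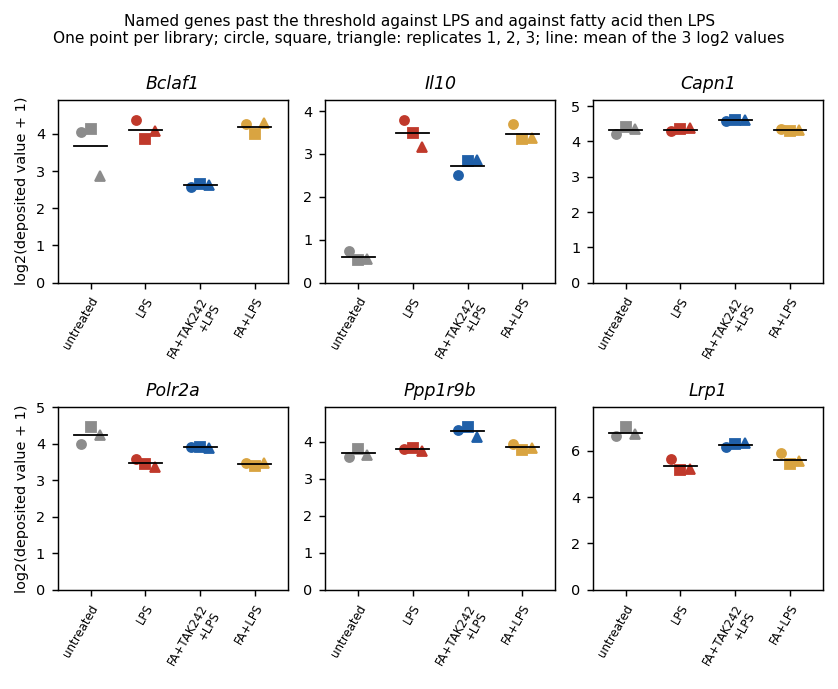
The 6 named genes that passed against LPS alone and against fatty acid alone, with log2(deposited value + 1) on the vertical axis (each panel starts at 0) for the 4 groups; points are libraries and lines the mean of 3. The fatty acid with TAK242 libraries lie below all LPS and fatty acid libraries in Bclaf1 and Il10 and above them in the other 4.

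The remaining named falls were Kmt5a and Upp1. Kmt5a, a histone H4 methyltransferase gene, stood at 75.2, 46.0 and 40.0 with LPS and 14.2, 29.6 and 14.9 after pretreatment, near the untreated mean of 19.9 (change -1.44, SE 0.30, adjusted p = 0.0293). Upp1, which splits uridine and has an AP-1 match in the sequence above, stood at 41.6, 31.6 and 20.4 against 10.3, 17.04 and 7.66 (change -1.36, SE 0.28, adjusted p = 0.0290), against an untreated mean of 0.0537. Without LPS replicate 1 these changes were -1.17 (adjusted p = 0.0678) and -1.13 (adjusted p = 0.0687).

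The label of the cells was checked against markers. The summed level of 12 macrophage markers was 10584 to 10866 with LPS and 9675 to 11156 after pretreatment. In each group 1 of the 12 was under 1 in every library, and 0 were at 0 in all libraries. Of 11 tested macrophage markers 1 rose (Itgam, adjusted p = 0.0424 in limma) and 1 fell (Cd14). The sum of 14 neutrophil markers was 187.1 to 536.0 with LPS and 131.4 to 163.6 after pretreatment, without overlap, and in each group 7 of the 14 were under 1 in every library. The defining marker Ly6g was at 0 in all LPS libraries. Of 7 tested members Camp fell, and S100a8 did not pass (adjusted p = 0.0582). S100a8 and S100a9, whose products form a dimer, went opposite ways in LPS replicate 1: S100a8 stood at 371.9, 114.5 and 78.1 in the LPS libraries and S100a9 at 5.70, 43.5 and 32.0. The sum of 13 stromal markers was 36.9 to 78.9 against 29.1 to 35.4, without overlap, and 1 of 8 tested fell (Col3a1, at 9.60, 6.13 and 5.15 against 2.97, 3.35 and 3.00, adjusted p = 0.0293, with exons overlapping Gm47302). The sum of 11 dendritic cell markers overlapped, at 640.4 to 1123 against 1001 to 1118. It was mostly Bst2 (627.9, 1106 and 1121 with LPS), and in each group 9 of the 11 were under 1 in every library. The 10 mast cell and 14 lymphocyte markers were under 1 in every library of both groups. The lymphocyte sum was 0.186 to 0.817 with LPS and 0.961 to 1.40 after pretreatment, without overlap, and 1 of 2 tested members rose (the B cell gene Cd79b, at 0.0177, 0.348 and 0.272 against 0.549, 0.918 and 0.752, change 0.53, SE 0.13, adjusted p = 0.0466). Of the 11 erythroid and megakaryocyte markers 9 with LPS and 10 after pretreatment were under 1 in every library, and the summed level was mostly Pf4. The neutrophil and stromal sums moved with the falling inflammatory genes and the lymphocyte sum with the rising genes, and their part in those results was not tested. In bulk RNA fewer cells of a type and less RNA per cell cannot be told apart.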

How the data were processed

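RNA-seq values of 12 libraries in 4 groups of 3 were taken from the deposited fatty acid table; the Western diet table was not used. The submitters' processing notes name HISAT2 2.0.5, FastQC 0.11.5, CASAVA 1.8.2 and Trim Galore 0.4.1; the quantification step and unit are not given in the sources used here. Gene coordinates equal GENCODE M21 (GRCm38) in 46858 of 50645 genes; 50336 had a symbol, and 36 entries of 17 gene IDs with displaced numbers were left out. The values are not counts, so genes at 1 or more in at least 3 libraries (10476) were fitted as log2(value + 1) by limma 3.58.1 (R 4.3.3, trend option on), without a replicate block; all 12 libraries shared the spread and p-values were adjusted by Benjamini-Hochberg. The fit was tested on simulated data.

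Named genes were the 10 largest rises and falls without overlap and with a mean of at least 10 in the higher group (unnamed gene models, pseudogenes and small RNA genes left out), up to 8 genes past both tests, calls holding with any library left out or with the 6 libraries alone, 2 to 4 members per list, and a set of focal genes. Genes and the 33 lists were chosen with earlier results of these data known. Alternatives were other filters, a pseudocount of 0.1, the 6 libraries alone, median-ratio scaling, quality weights, the block, and leaving out each library. Python 3.11.15 with pandas 2.3.3 made the tables and matplotlib 3.10.9 the plots. A member of the lysosome list is not reported here.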

Additional observations from a re-analysis of the deposited data

How the results depend on the processing

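The 617 changed genes became 88 without a filter, 2 with the 6 libraries alone, 1010 after median-ratio scaling, 2483 with array quality weights, and 2 with scaling and the 6 libraries together, a setting chosen after seeing the data. With 1 library left out the range was 1 to 1784. A minimum of 5 gave 501 and a pseudocount of 0.1 gave 584. Of 150 named genes tested, 63 changed; this became 5 without a filter, 2 with the 6 libraries alone, 113 with weights, 2 with scaling and the 6 libraries, and 1 to 113 with a library left out. The 47 changes among list members became 4 without a filter, 0 with the 6 libraries alone, 81 after scaling, 160 with weights, 0 with scaling and the 6 libraries, and 0 to 162 with a library left out. Scaling turned the balance of the calls, with 424 rises beside 193 falls before it and 452 rises beside 558 falls after it, while no named gene that had changed took the opposite sign under the settings run. The fits of the 6 libraries have 4 residual degrees of freedom against 8 with all 12. They also leave out the untreated and fatty acid libraries, whose median SDs over genes were 0.122 and 0.105 beside 0.162 in the LPS group. A spread shared over all 12 can therefore understate the error of a contrast with LPS. The cause of the shifts between settings was not tested. The replicate number as a block gave 579 changed genes. Deviations from the group means correlated at 0.0376, -0.013 and 0.2 between same-numbered libraries, and at -0.188 to 0.154 between other-numbered ones. With 3 libraries per group these values cannot decide whether the numbers pair the samples. The values carry no read depth, so counting error could not be separated from the spread between libraries.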

Other observations

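Some of the smallest adjusted p-values (limma) belonged to genes outside the lists and the naming rule, which were chosen after their values were seen. Gpcpd1, which encodes a glycerophosphocholine phosphodiesterase, stood at 8.01, 8.68 and 8.62 with LPS and at 15.4, 15.8 and 15.4 with fatty acid and TAK242, a change of 0.81 (SE 0.08, adjusted p = 0.00553). With fatty acid alone it stood at 19.6, 20.8 and 18.9, and the untreated libraries held 14.5, 17.3 and 17.3. Galc, the lysosomal galactosylceramidase gene, rose from 6.42, 7.16 and 7.48 to 11.9, 11.3 and 10.7 (change 0.62, SE 0.09, adjusted p = 0.0156). Vrk2, a kinase gene whose exons overlap Fancl, rose by 0.96 (SE 0.13), B4galt6, the lactosylceramide synthase gene, by 0.76 (SE 0.11), and Tbc1d19 by 0.75 (SE 0.10), each with adjusted p = 0.0156. The ribosomal protein gene Rpl27a fell from 171.6, 181.8 and 175.9 to 109.8, 114.2 and 118.3 (change -0.62, SE 0.09, adjusted p = 0.0156). The LPS libraries of Gpcpd1, Galc and Rpl27a were close together, which a choice by smallest adjusted p favours. LPS replicate 1 was the LPS library farthest from the pretreated group in Gpcpd1 and Galc, but not in Rpl27a.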
